A study of Mus musculus with 80 samples.

Results

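The longest fast of the series was read at CT44, circadian time 44 h, when the fasted mice had been without food for 34 h. The comparison holds 8 of the 80 liver transcriptomes of the series, the 4 titled fasted CT44 and the 4 titled control CT44, and each group is made of 2 males and 2 females. All mice were wild-type C57BL/6J animals of 8 to 12 weeks, kept at least 4 to a cage on standard chow. They were under 12 h of light and 12 h of darkness for 10 days and then in constant darkness on day 11. Food was taken from the fasted mice at CT10, control mice ate ad libitum, and livers were taken every 4 h from CT8 to CT44. The libraries were chosen by their titles and by the matching column names of the count table. The detailed labels give the treatment of all 8 as control and disagree with the titles on sex, but Xist and Ddx3y, transcripts of the female and the male sex chromosomes, matched the sex of the title in 8 of 8 libraries. Each sample came from the centre of the left lobe, about 40 mg, so the values are of whole liver tissue and not of sorted hepatocytes. The labels do not say which mice shared a cage. The p-values of the gene tests rest on the spread between samples within groups, estimated over all 80 libraries of the series.

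When food runs out, the liver first spends its glycogen and then makes glucose from amino acids, glycerol and lactate. Fatty acids released by adipose tissue are oxidised in its mitochondria and peroxisomes, a programme driven by the nuclear receptor PPARα, and their carbon leaves the liver as ketone bodies. Falling insulin frees FOXO factors and withdraws SREBP-1c, while glucagon and glucocorticoids drive the gluconeogenic genes, and feeding time itself sets the phase of the liver clock.

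Sequencing depth lay between 30551612 and 52999252 counts per library, with a median of 44517420.5. The mean totals of the groups differed by less than their spread (exact permutation test, two-sided, p = 0.514, where the smallest p that 4 against 4 libraries allow is 0.0286). Albumin, the defining hepatocyte product, was read at 57405, 68562, 75280.2 and 75976 CPM (counts per 1000000 counts of the library) in the fasted livers and at 65406, 63620.3, 77244 and 80095 CPM in the control livers, in the order male 1, male 2, female 1 and female 2 that is kept for every list of values here. Its groups overlapped throughout, with a log2 difference of -0.05 ± 0.13 (SE, adjusted p = 0.817). In the first 3 principal components of the 8 libraries, treatment separated along the first (46.9% of the variance) and sex along the second (21.4%), while the third (12.2%) set fasted female 1 apart. That library correlated at a mean r of 0.9648 with the other fasted libraries, against 0.9737 to 0.9762 for the other 7 within their own groups. It is named below where it held an extreme value, with the difference without it. The 18S ribosomal RNA share was lower in the fasted libraries, 0.0712% against 0.136% on average (exact permutation test, two-sided, p = 0.0286), and was highest in control female 2, at 0.226%. Control male 2 held traces of pancreatic acinar transcripts, with Ctrb1 at 3.2 CPM and Pnlip at 2.06 CPM, both at 0 in the other 7 libraries.

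Of 21187 genes with enough counts to test, 3968 were higher and 4387 were lower in the fasted livers, which is 18.7% and 20.7% (edgeR's quasi-likelihood test, Benjamini-Hochberg adjusted p under 0.05). The shares of 18.7% higher and 20.7% lower are the background for the counts of every gene list below. The 4 fasted and the 4 control values did not overlap for 6369 genes, or 30.1%. The median log2 difference over all tested genes was -0.03, and every log2 difference below is fasted minus control, given with its standard error. A change of at least 1.5 times was reached by 5130 of the called genes (2133 higher, 2997 lower) and one of at least 4 times by 1304 (537 higher, 767 lower).

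**Figure D1:**
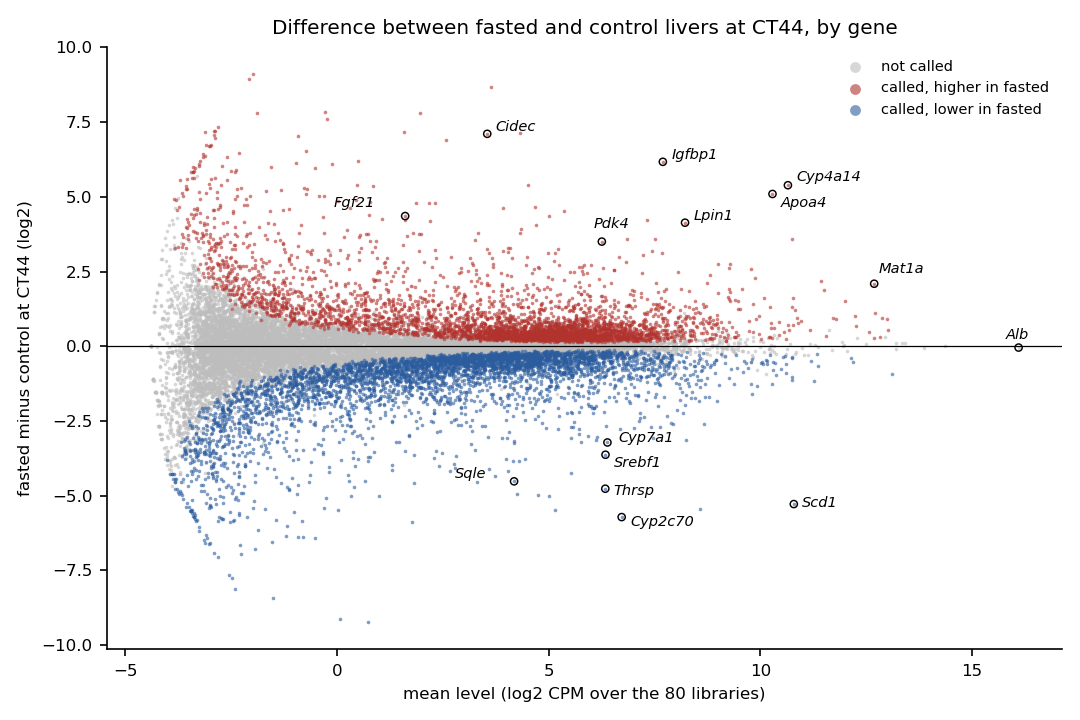
Each point is a gene. The x axis is its mean level (log2 CPM) over the 8 libraries of CT44, not over the 80 named in the axis title. The y axis is its log2 difference, fasted minus control at CT44. Called genes are red (3968 higher) or blue (4387 lower), and Cidec at 7.11, Igfbp1 at 6.17, Cyp2c70 at -5.72 and Scd1 at -5.28 lie far from the zero line on which Alb sits.

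The largest rises among genes of a mean of at least 1 log2 CPM whose groups did not overlap were those of 2 predicted genes, Gm48199 (8.66 ± 1.13) and Gm15441 (7.8 ± 0.80), both near 0 in the control livers. Without control female 1 these differences were 9.64 and 9.85. Ppp1r3g, a glycogen-targeting subunit of protein phosphatase 1 (7.17 ± 1.08), and Rgs16, a regulator of G protein signalling (7.14 ± 1.07), followed. The former rested on control values near 0 and moved to 6.32 without fasted female 1 and to 10.32 without control male 1. Cidec, a lipid droplet protein, stood at 127, 161, 149 and 160.3 CPM in the fasted and 1.81, 1.78, 1.16 and 0.13 CPM in the control livers, a log2 difference of 7.11 ± 0.47 (adjusted p = 7.5e-16). Igfbp1, the binding protein that is secreted when insulin is low, stood at 495, 2147, 4626 and 1359 against 23.2, 32.6, 18.9 and 35.5 CPM. It differed by 6.17 ± 0.98 (adjusted p = 1.9e-06), and fasted female 1 held its highest level. Without that library the difference was 5.61 and without fasted male 2 it was 5.47, and that of Cidec was 8.25 without control female 1. Apoa4, an apolipoprotein, went from 143, 126, 460.1 and 236 CPM in the control to 6328, 7651, 7671 and 8026 CPM in the fasted livers (5.1 ± 0.36, adjusted p = 3.61e-15). The 4 fasted values of this gene lay close together, within 6328 to 8026 CPM.

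Among the largest falls, Cyp2c70, the enzyme that makes muricholic acids in mice, dropped from 899, 905, 743 and 627 CPM in the control livers to 12.2, 10.1, 28.2 and 11.6 CPM in the fasted livers (-5.72 ± 0.27, adjusted p = 1.64e-20). Car3, a carbonic anhydrase abundant in liver, was read at 4237, 3982, 1747 and 3393 CPM in the control and 229, 54.6, 4.92 and 71.9 CPM in the fasted livers (-5.46 ± 0.75). Fasted male 1 held the highest fasted value, and the difference was -6.14 without it and -6.94 without fasted female 2. The water channel Aqp8 (-4.98 ± 0.55) and the organic anion carrier Slc22a7 (-4.55 ± 0.63) fell in all 4 fasted livers below the lowest control. Scd1, Thrsp and Sqle were also among the largest falls and are described with their pathways.

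**Figure D2:**
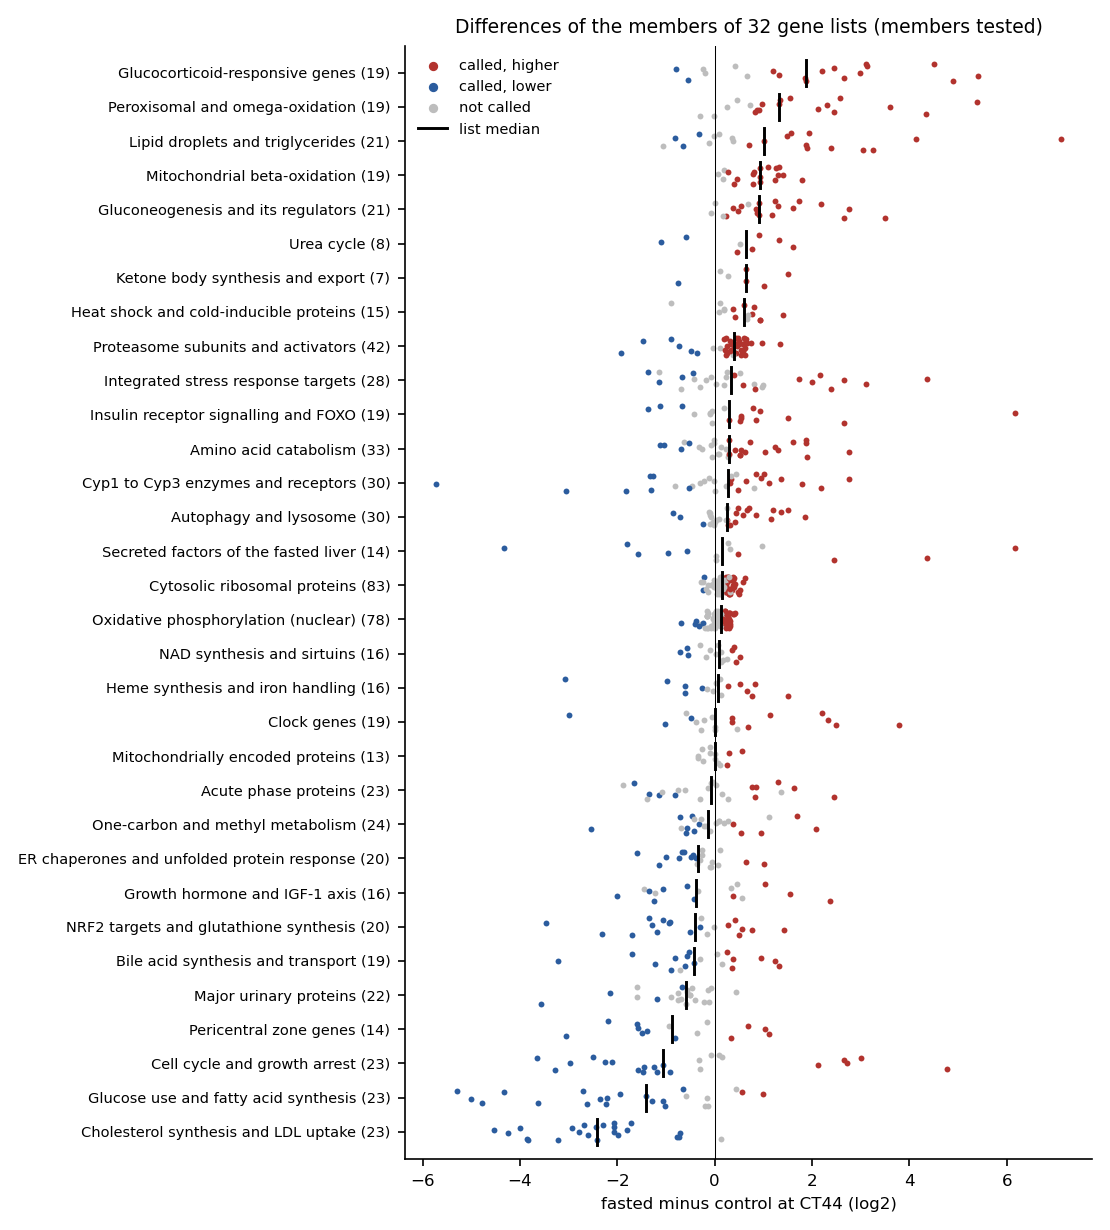
Each row is one of 32 gene lists with its number of tested members, and each point is a member's log2 difference, fasted minus control at CT44. Red and blue points are called genes and black bars are list medians, from -2.42 for cholesterol synthesis at the bottom to 1.87 for glucocorticoid-responsive genes at the top.

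Genes of fatty acid oxidation were higher in the fasted livers at most steps tested. Of 19 tested members of mitochondrial import and β-oxidation, 16 were higher and 0 lower, with a median log2 difference of 0.92, where 18.7% of all genes were higher. Cpt1a, the outer membrane transferase that gates fatty acid entry into mitochondria, was read at 1085, 1189, 1223 and 1159 CPM in the fasted and 323, 300.1, 425 and 293 CPM in the control livers (1.8 ± 0.16, adjusted p = 2.76e-12). The groups did not come near each other, and the fasted values lay within 1085 to 1223 CPM. The acyl-CoA dehydrogenases of medium and long chains, Acadm (1.41 ± 0.14) and Acadl (1.3 ± 0.11), rose, as did the isomerases Eci2 (1.32 ± 0.18) and Ech1 (1.25 ± 0.13) and the β subunit of the trifunctional protein, Hadhb (1.26 ± 0.13).

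Ketone body synthesis was called less uniformly, with 4 of 7 members higher and 1 lower. The monocarboxylate carrier Slc16a7 rose (1.01 ± 0.13). Slc16a6, another carrier of the family, fell by 0.75 on the log2 scale (adjusted p = 0.00575), with overlapping groups and no call without fasted female 2.

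Peroxisomal and ω-oxidation held the largest rises of this metabolism, with 14 of 19 members higher, 0 lower and a median of 1.31. Cyp4a14, a fatty acid ω-hydroxylase and classical PPARα target, was at 11458, 11984, 8809 and 10492 CPM in the fasted livers and at 71.1, 95.3, 1069 and 479.7 CPM in the control livers (5.39 ± 0.58, adjusted p = 4.73e-10). The control females held more of it than the control males, while the fasted libraries of both sexes reached like levels. Cyp4a10 went from 276, 308, 1101 and 594 to 6569, 6595, 4919.8 and 6158 CPM (3.6 ± 0.36), and the bifunctional enzyme Ehhadh from 345, 351, 641 and 436 to 2767, 2429, 1192 and 2299 CPM (2.3 ± 0.24). The Cyp4a genes lie in a family of near-identical copies, so reads could be split between them, and Cyp4a31 (4.34 ± 0.46) and Cyp4a32 (2.45 ± 0.29) share that limit.

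**Figure D3:**
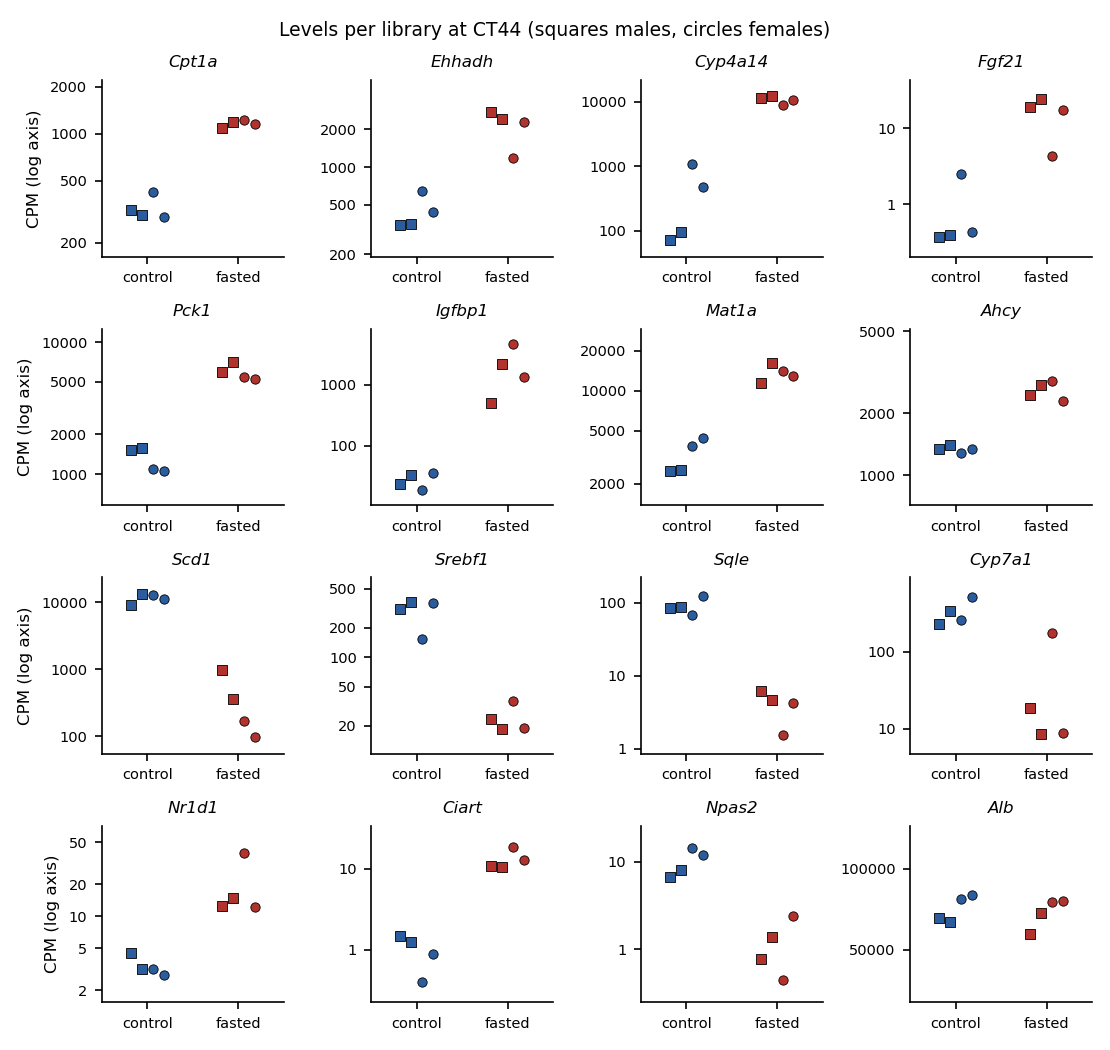
Levels of 16 genes in each of the 8 libraries at CT44, in CPM on log axes, with control livers in blue, fasted livers in red, squares for males and circles for females. The groups are apart for 15 genes and overlap for Alb, and fasted female 1 (the left circle) stands off in Fgf21 at 4.31 CPM, Cyp7a1 at 176 CPM and Nr1d1 at 39.7 CPM.

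The hormones that the liver secretes moved in both directions. Fgf21, the fasting hormone made under PPARα and amino acid stress signals, was at 18.9, 24, 4.31 and 17.4 CPM in the fasted and 0.367, 0.386, 2.48 and 0.434 CPM in the control livers (4.36 ± 0.73, adjusted p = 4.89e-06). The females were the odd pair of values, as fasted female 1 had the lowest fasted level and control female 1 the highest control level, yet the groups stayed apart. The difference was 4.7 without fasted female 1, 3.69 without fasted female 2 and 5.23 without control female 1. Angptl4, an inhibitor of lipoprotein lipase, rose (2.45 ± 0.45) and Angptl8, its family member of the fed state, fell from 37.2, 41.7, 67.5 and 115 to 3.64, 2.42, 2.44 and 3.42 CPM (-4.33 ± 0.51). Enho, which encodes adropin (-1.81 ± 0.30), and the chemotactic factor Lect2 (-1.57 ± 0.31) also fell. In all, 4 of 14 were higher and 5 lower, beside 18.7% and 20.7% of all genes.

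Lipid droplet and triglyceride genes included 12 higher and 3 lower of 21, at a median of 1.01. Besides Cidec, the droplet coat gene Plin4 (3.25 ± 0.39) rose, as did Pnpla2, the adipose triglyceride lipase, from 53.9, 50.8, 59.3 and 47.3 to 290.1, 449, 582 and 442 CPM (3.04 ± 0.21). The phosphatidate phosphatases Lpin1 and Lpin2, which make diacylglycerol, rose by 4.13 ± 0.58 and 2.38 ± 0.22. Lpin1 was spread widely among the fasted livers, at 547, 1482, 2379 and 1040.4 CPM, but every fasted value was far above the controls, which stood at 84.4, 78, 78 and 60.5 CPM.

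Gluconeogenesis was called higher in 17 of 21 members and lower in 0, with a median of 0.92. Pck1, which makes phosphoenolpyruvate from oxaloacetate, was read at 5898, 7038, 5471 and 5281 CPM in the fasted and 1535, 1591, 1091 and 1048 CPM in the control livers (2.19 ± 0.26, adjusted p = 3.32e-09). Pdk4, the kinase that shuts pyruvate out of the citrate cycle, stood at 190.0, 328, 333 and 204 against 21.3, 22.3, 18.1 and 31.7 CPM (3.5 ± 0.52). Both genes kept their groups apart. Ppargc1a, the coactivator PGC-1α, was at 33.4, 62, 149.6 and 57.3 CPM in the fasted livers, highest in fasted female 1, and at 7.85, 9.94, 13 and 15.2 CPM in the control livers (2.65 ± 0.35, or 2.23 without that library). The glucose-6-phosphate carrier Slc37a4 rose (1.6 ± 0.22). G6pc1, the phosphatase of the last step, was not called at 654, 535, 868 and 587 against 491, 562, 263 and 368 CPM (0.69 ± 0.29, adjusted p = 0.0508), and its groups overlapped. Its call was open to the settings, as it passed the test in 9 of 19 alternatives, for example with DESeq2's test (adjusted p = 0.0297), without fasted female 2 (0.0344) and in females alone (0.0213).

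Amino acid catabolism supplied 16 higher and 4 lower genes of 33, at a median of 0.29. Tat, the tyrosine aminotransferase, was read at 3318, 6288, 8769 and 5002 CPM in the fasted and 1663, 2092, 851 and 1787 CPM in the control livers (1.87 ± 0.35, adjusted p = 2.6e-05). Got1, the cytosolic aspartate aminotransferase (2.75 ± 0.39), Aass of lysine breakdown (1.9 ± 0.21), Tdo2 of tryptophan breakdown (1.6 ± 0.17) and the serine dehydratases Sds (1.29 ± 0.35) and Sdsl (1.88 ± 0.41) all rose. Got1 spread from 714 CPM in fasted male 1 to 2586 CPM in fasted female 1, without which its difference was 2.42. The urea cycle, which disposes of the nitrogen set free, had 5 of 8 genes higher and 2 lower. Asl (1.61 ± 0.19) and Arg1 (1.31 ± 0.18) rose, while Nags, which makes the activator of the first step, fell (-0.58 ± 0.11).

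Transcripts of fat synthesis from glucose were lower. Of 23 genes of glucose use and fatty acid synthesis, 16 were lower and 2 higher, at a median of -1.41, where 20.7% of all genes were lower. Scd1, the stearoyl-CoA desaturase, dropped from 9119, 13048, 12981 and 11012 to 971, 358, 166 and 98 CPM (-5.28 ± 0.59). Within the fasted group both fasted males held more Scd1 than both fasted females. Srebf1, the source of SREBP-1c, was read at 23.5, 18.6, 35.4 and 18.8 against 314, 366, 154 and 361 CPM (-3.63 ± 0.30, adjusted p = 3.43e-13). The lowest control value was that of control female 1 and the highest fasted value that of fasted female 1, and the difference was -3.89 without the latter. The enzymes Fasn (-2.61 ± 0.38) and Acly (-2.71 ± 0.34) fell, as did Thrsp (-4.77 ± 0.61) and the lipid droplet protein Pnpla3 (-4.32 ± 0.75), which was close to 0 in all 4 fasted livers. Thrsp moved to -5.48 without fasted female 1 and Pnpla3 to -5.15 without fasted female 2.

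Cholesterol synthesis had the lowest median of the 32 lists, -2.42, with 22 of 23 members lower and 0 higher. Sqle, the squalene epoxidase, was at 6.16, 4.57, 1.53 and 4.22 CPM in the fasted livers and 84, 87.8, 67.4 and 124 CPM in the control livers (-4.52 ± 0.40, adjusted p = 1.96e-12). Fdps (-4.25 ± 0.28), Mvd (-4.01 ± 0.39), Idi1 (-3.85 ± 0.33) and Nsdhl (-3.84 ± 0.23), enzymes between mevalonate and cholesterol, fell alike. Each of these 5 genes was lower in all 4 fasted livers than in the lowest control, and Mvd moved to -3.4 without control female 2. Hmgcs1, the cytosolic synthase of the first committed step, was read at 90.8, 57, 37.3 and 74.6 against 254, 304, 299 and 551 CPM (-2.42 ± 0.28, adjusted p = 2.86e-09).

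Promoters were searched for the short elements that the regulators of these pathways are known to read, in the 250 bases before the gene start of RefSeq (GRCm38.p6) and on both strands. The element TCACNCCAC of the sterol factor SREBP was found in 1 of 16 cholesterol genes with a promoter in the table, Hmgcs1, and in 1.33% of the 12520 tested genes that had one. TGATGCAAT, the element of the stress factor ATF4, was found in 2 of 23 members of the integrated stress response list, Fgf21 and Nupr1, and in 0.168% of all. The E-box CACGTG, which the clock factors BMAL1 and CLOCK bind, was found in 5 of 15 clock genes (Cry1, Per1, Tef, Bhlhe41 and Ciart) and in 9.18% of all, among them 11% of the genes called higher and 7.99% of those called lower. The cAMP element TGACGTCA was found in 0 of 15 gluconeogenic genes and 2.67% of all. A direct repeat of AGGTCA with 1 base between, the form read by PPARα, was found in 0 of 39 genes of fatty acid oxidation, ketogenesis and hepatokines and in 0.0639% of all. None of these motifs overlapped another in the 3 promoters shown, which were chosen because their genes changed and hold the element of their pathway, and a match is a description of letters and not of binding. Each sequence runs 5′ to 3′ on the strand of its gene and ends at the base before the start, with matches of the motif in capitals. They are Hmgcs1 at chr13:119690101-119690350 on the plus strand, Fgf21 at chr7:45615491-45615740 on the minus strand, where the element is read on the opposite strand, and Ciart at chr3:95882229-95882478 on the minus strand, which holds 3 E-boxes between 116 and 44 bases before its start.
Hmgcs1: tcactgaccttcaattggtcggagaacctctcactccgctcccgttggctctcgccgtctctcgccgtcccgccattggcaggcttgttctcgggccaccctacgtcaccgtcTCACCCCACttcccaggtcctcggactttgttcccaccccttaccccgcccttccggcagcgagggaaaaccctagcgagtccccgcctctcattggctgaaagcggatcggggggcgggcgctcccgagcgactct
Fgf21: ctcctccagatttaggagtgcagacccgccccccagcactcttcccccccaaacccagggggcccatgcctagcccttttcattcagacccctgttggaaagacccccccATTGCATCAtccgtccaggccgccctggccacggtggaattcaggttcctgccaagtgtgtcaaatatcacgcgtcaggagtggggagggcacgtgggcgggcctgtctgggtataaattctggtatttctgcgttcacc
Ciart: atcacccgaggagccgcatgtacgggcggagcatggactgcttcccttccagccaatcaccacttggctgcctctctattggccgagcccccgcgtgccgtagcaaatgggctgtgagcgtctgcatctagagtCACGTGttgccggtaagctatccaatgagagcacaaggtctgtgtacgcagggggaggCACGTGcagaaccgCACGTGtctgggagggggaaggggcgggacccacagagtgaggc

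Bile acid genes split. Of 19, 6 were higher and 9 lower. Cyp7a1, the rate-limiting enzyme of bile acid synthesis, was at 18.3, 8.51, 176 and 8.79 CPM in the fasted and 225, 339, 253 and 512 CPM in the control livers (-3.22 ± 0.65, adjusted p = 7.8e-05). Fasted female 1 stood near the controls and far above the other fasted livers, and the difference was -4.91 without it. Cyp8b1, the 12α-hydroxylase of cholic acid, rose (1.24 ± 0.23), as did the canalicular phospholipid pump Abcb4 (1.33 ± 0.14). The bile salt export pump Abcb11 fell from 777, 805, 794 and 848 to 267, 308, 152 and 276 CPM (-1.7 ± 0.17). Cyp7b1 (-1.22 ± 0.26) was read at 118, 133, 14.4 and 12.9 against 515, 415, 16.8 and 23.6 CPM, with male levels far above female levels in both groups, and was not called in females alone.

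Genes under insulin, growth hormone and glucocorticoids came next. Of 19 members of insulin and FOXO signalling, 10 were higher and 3 lower, with Irs2, the receptor substrate that FOXO1 induces, higher (1.5 ± 0.27) and the regulatory kinase subunit Pik3r1 lower (-1.12 ± 0.17). Trib3, a pseudokinase inhibitor of AKT, was at 16.9, 13.9, 11 and 7.36 against 1.98, 1.65, 1.52 and 2.36 CPM (2.66 ± 0.36). The growth hormone axis had 4 higher and 6 lower of 16, beside 18.7% and 20.7% of all genes. Its receptor Ghr stood at 309.9, 225, 117 and 190.3 CPM in the fasted and 592, 551, 418 and 506 CPM in the control livers (-1.34 ± 0.19), Igfals, the partner that keeps IGF-1 in the circulation, fell (-2.01 ± 0.27) and Igfbp2 rose (1.55 ± 0.22). Igf1 itself was not called (-0.33 ± 0.17, adjusted p = 0.129), at 471, 636, 566 and 315 against 658, 541, 738 and 553 CPM. Without fasted female 1 it passed the test, at -0.57 (adjusted p = 0.0162).

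Glucocorticoid-responsive genes had the highest median of the 32 lists, 1.87, with 13 of 19 higher and 2 lower. Fkbp5, the chaperone that damps the receptor, was read at 213, 311, 369 and 292 CPM in the fasted and 26.2, 27.2, 76.5 and 27.6 CPM in the control livers (2.98 ± 0.34, adjusted p = 1.13e-09). Cebpd, a C/EBP transcription factor, went from 3.94, 4.81, 3.94 and 4.14 to 20.7, 36.1, 66.9 and 28.1 CPM (3.12 ± 0.42). The metallothioneins Mt1 (4.51 ± 0.80) and Mt2 (5.4 ± 0.95), which bind zinc, rose with overlapping groups because control female 1 held 60.7 CPM of Mt1, above the 52.6 CPM of fasted male 1. Sult1e1, the oestrogen sulphotransferase, differed by 4.9 ± 0.86 and stood at 0.787, 4.84, 47.8 and 4.41 CPM in the fasted livers, where fasted female 1 was far above the others. Its difference was 3.62 without that library and 3.98 without fasted male 2. Without fasted male 2, Mt1 stood at 3.67 and Mt2 at 4.12, and Mt2 stood at 6.15 without control female 1.

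The integrated stress response, read through ATF4 targets, showed 10 higher, 4 lower and 14 not called of 28, where 18.7% of all genes were higher and 20.7% lower. Atf4 itself, which is controlled in translation, differed by 0.04 ± 0.15 (adjusted p = 0.881). Sesn2, a stress-induced inhibitor of mTORC1 (2.39 ± 0.30), and Atf3 (2.17 ± 0.43) rose, with Sesn2 at 1.79 without fasted female 1. The values of Atf3 were low but even, at 3.8, 3.67, 4.14 and 3.42 CPM in the fasted and 0.783, 0.816, 0.857 and 0.868 CPM in the control livers. Of 20 chaperone genes of the endoplasmic reticulum, 9 were lower, 2 higher and 9 not called, and the median was -0.68 in males and 0.19 in females. Hspa5, the chaperone BiP, stood at 485, 469, 841 and 530.5 CPM in the fasted and 777, 751, 423 and 497 CPM in the control livers and was not called (-0.05 ± 0.22). Its male groups were apart with the controls higher, and its female groups were apart with the fasted livers higher. The sex difference of this gene was 1.25 ± 0.44 (adjusted p = 0.23). Edem1 (-0.99 ± 0.10) and the translocon subunit Sec61b (-1.15 ± 0.14) fell in both sexes.

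Clock genes are of interest at CT44 because control mice in darkness are in the later part of the subjective night. Among 19 clock and output genes, 8 were higher, 3 lower and 8 not called, at a median of 0.01. Over all genes, 18.7% were higher and 20.7% lower. Ciart, a repressor of CLOCK and BMAL1, was at 10.7, 10.5, 18.7 and 12.7 CPM in the fasted and 1.47, 1.25, 0.407 and 0.889 CPM in the control livers (3.78 ± 0.41, adjusted p = 3.47e-10). The other repressors Nr1d2, at 67.3, 69.8, 87.7 and 58.6 against 13, 13.4, 14.8 and 15.5 CPM (2.32 ± 0.16), Nr1d1, at 12.5, 14.9, 39.7 and 12.4 against 4.45, 3.16, 3.15 and 2.75 CPM (2.5 ± 0.34), and Per1 (2.21 ± 0.35) rose as well. All 4 kept their groups apart, and Nr1d1 was highest in fasted female 1, without which it differed by 1.96. Npas2, the paralogue of Clock and an activator, fell from 6.68, 7.99, 14.3 and 11.8 to 0.764, 1.37, 0.441 and 2.36 CPM (-2.99 ± 0.41, adjusted p = 8.42e-08), and by 3.82 on the log2 scale without fasted female 2. Bmal1, its partner, was not called (-0.59 ± 0.29, adjusted p = 0.1), at 21.6, 28.3, 13.4 and 26.9 against 30.4, 32.7, 35 and 37 CPM, and neither was Per2 (-0.21 ± 0.22, adjusted p = 0.474). Bmal1 passed the test in 5 of 19 alternatives, for example without fasted female 2 (-0.88, adjusted p = 0.0267) and with limma-voom (-0.63, adjusted p = 0.0102). Dbp, an output factor driven through E-boxes, rose by 1.13 ± 0.40 (adjusted p = 0.0222), a call that was lost without fasted female 1 (0.49, adjusted p = 0.435), fasted male 1 (0.95), control male 1 (1.02) or control female 1 (0.96). Of the genes with an E-box in the promoter, Ciart, Per1 and Tef (0.68 ± 0.16) rose and Bhlhe41 differed by 0.01 ± 0.52. Cry1 fell (-0.49 ± 0.20, adjusted p = 0.0467), but its call was lost in turn without any of 6 libraries, fasted male 1, both fasted females, control male 2 and both control females, at -0.39 to -0.53.

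One-carbon and methyl metabolism, which carries methyl groups from methionine to acceptors, had 5 higher, 7 lower and 12 not called of 24. Of all genes, 18.7% were higher and 20.7% lower. Mat1a, which makes S-adenosylmethionine in hepatocytes, was read at 11377, 16286, 14176 and 12855 CPM in the fasted and 2476, 2549.6, 3824 and 4370.3 CPM in the control livers (2.09 ± 0.18, adjusted p = 5.41e-13). Ahcy, which clears S-adenosylhomocysteine, went from 1341, 1398, 1289 and 1339 to 2447, 2743, 2862 and 2304 CPM (0.95 ± 0.11, adjusted p = 9.4e-10). In both genes every fasted liver lay above every control liver. Of the methyltransferases, Nnmt of nicotinamide rose (1.7 ± 0.41), Pemt of phosphatidylethanolamine fell (-0.60 ± 0.11) and Gamt of guanidinoacetate fell from 126, 125, 120.1 and 169 to 60.9, 32.1, 2.31 and 20.3 CPM (-2.55 ± 0.41), lowest in fasted female 1. The difference of Gamt was -2.125 without that library, and without fasted female 2 it was -3.7. Gnmt, the glycine methyltransferase, was not called (0.09 ± 0.18, adjusted p = 0.737). The serine hydroxymethyltransferase of the cytosol, Shmt1, fell (-0.71 ± 0.15).

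Drug-metabolising cytochromes of families 1 to 3 and their receptors held 12 higher and 7 lower genes of 30, with a median of 0.42 in males and -0.56 in females, and reads of their near-identical copies could again be split. Por, the reductase that feeds electrons to all microsomal cytochromes P450, was at 1157, 1558, 2435 and 1441 CPM in the fasted and 186, 213, 307 and 276 CPM in the control livers (2.75 ± 0.21, adjusted p = 3.38e-14). Cyp1a2 fell from 499, 575, 418 and 592 to 113, 68.5, 29.7 and 56 CPM (-3.06 ± 0.33) and Cyp2c29 by 1.82 on the log2 scale. Cyp1a2 is also a gene of the pericentral zone, where 7 of 14 genes were lower and 4 higher. The lower ones included the Wnt pathway genes Lgr5 (-2.19 ± 0.33) and Rnf43 (-1.59 ± 0.28) and the vitamin C enzyme Gulo (-1.39 ± 0.15). The 4 higher ones were Cyp2e1 (1.11), Oat (1.02), Slc1a2 (0.68) and Znrf3 (0.34), and Glul was not called (-0.17). The summed level of the 14 genes was 8946 to 15310 CPM in the fasted and 7270 to 7533 CPM in the control livers. Antioxidant and glutathione genes under NRF2 were lower in 11 and higher in 6 of 20. The glutathione transferases Gstm3, at 3.7, 2.91, 2.85 and 2.17 against 26.6, 32.3, 28.3 and 40.9 CPM (-3.47 ± 0.33), Gsta4 (-1.7 ± 0.24) and Gstm2 (-1.34 ± 0.20) fell, and sulfiredoxin Srxn1 rose (1.41 ± 0.14). Of 22 genes of the major urinary proteins, near-identical copies whose reads cannot be well assigned, 4 were lower and 18 not called. The lower share was near the 20.7% of all genes. Their median was -1.45 in males and -0.05 in females. Summed, they stood at 10830 and 11310 CPM in the fasted and 21670 and 20480 CPM in the control males. In females the sums were 1755 and 910.8 against 1938 and 1636 CPM.

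Acute phase proteins numbered 6 higher and 4 lower of 23, near the 18.7% and 20.7% of all genes. Among them were Lbp (1.29 ± 0.22) and Serpina3n (1.63 ± 0.33) higher and Saa4 (-1.65 ± 0.33) and Orm1 (-1.14 ± 0.27) lower. Of 16 genes of heme and iron, 6 were higher and 5 lower, and Hamp2, a hepcidin, fell (-3.08 ± 0.65), with 2.78, 1.44, 8.28 and 18.1 CPM in the fasted and 5.8, 9.06, 248 and 286 CPM in the control livers. The control females held far more of it than the control males, and males alone did not pass the test.

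Of 23 cell cycle and growth arrest genes, 13 were lower and 5 higher, at a median of -1.07. Mki67, which marks dividing cells, stood at 0.602, 0.407, 0.61 and 0.373 CPM in the fasted and 3.45, 3.29, 5.1 and 3.9 CPM in the control livers (-2.97 ± 0.54), and Top2a, the topoisomerase of dividing cells, fell likewise (-3.29 ± 0.67). The arrest and stress genes Gadd45b, at 12.3, 33.9, 37.4 and 23 against 0.93, 0.816, 0.921 and 1.19 CPM (4.78 ± 0.56), and Btg2 (2.72 ± 0.55) rose. Gadd45a, of the same family as Gadd45b, fell (-1.56 ± 0.35), and Cdkn1b, an inhibitor of cyclin-dependent kinases, was not called (0.08 ± 0.08). Both were picked after their values were seen.

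Of 42 proteasome subunits and activators, 33 were higher, 6 lower and 3 not called, a median of 0.40. The regulatory subunits Psmd9, at 69.9, 69.7, 96.9 and 71.3 against 27.3, 33.3, 31.7 and 28.2 CPM (1.35 ± 0.13), and Psmd4 (0.97 ± 0.09) rose most. The lower genes included the 3 interferon-inducible catalytic subunits of the immunoproteasome, Psmb8 (-0.90 ± 0.20), Psmb9 (-1.92 ± 0.26) and Psmb10 (-1.47 ± 0.13), and both subunits of its activator, Psme1 (-0.49 ± 0.14) and Psme2 (-0.74 ± 0.11). Psmb10 was read at 7.43, 6.94, 6.48 and 6.89 CPM in the fasted and 17.6, 16.8, 18.6 and 24.4 CPM in the control livers, with no overlap. The remaining lower member, Psmd10, differed by -0.35 ± 0.08. This grouping of the lower members was made after their values were seen. Autophagy and lysosome genes were higher in 15 and lower in 3 of 30, with the mitophagy receptor Bnip3 (1.85 ± 0.16), the protease Ctsl (1.51 ± 0.22) and Map1lc3b of the autophagosome membrane (1.36 ± 0.14) higher.

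Cytosolic ribosomal proteins were higher in 33 and lower in 2 of 83, with small differences (median 0.15, -0.05 in males and 0.39 in females). Without fasted female 1 the counts were 19 higher and 4 lower. Rplp2 was read at 71.9, 81.5, 112 and 79.2 against 53.5, 54.7, 57.6 and 55.5 CPM (0.63 ± 0.10), highest in that library and at 0.4993 without it. Nuclear subunits of oxidative phosphorylation were higher in 27 and lower in 5 of 78, all within -0.69 to 0.41. Of the 13 mitochondrially encoded genes, 3 were higher and 0 lower, with mt-Nd5 at 0.55 ± 0.10, where 18.7% of all genes were higher. NAD synthesis and sirtuins had 4 higher and 3 lower of 16, again near the 18.7% and 20.7% of all genes, and none of the named members reached a log2 difference of 1. Heat shock and cold-inducible genes were higher in 8 and lower in 0 of 15. Hspa8, a constitutive HSP70, rose most, at 1379.9, 1999, 976 and 1729 against 656, 664, 632 and 362 CPM (1.4 ± 0.21). Hspb1 (0.94), the cold-inducible Cirbp (0.92) and Rbm3 (0.81), Cct2 (0.76) and the mitochondrial chaperonin Hspd1 (0.60 ± 0.09) were also higher. Cirbp stood at 0.37 without fasted female 1.

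Markers of other cells were followed in the same libraries, and in whole tissue fewer cells of a type and less RNA per cell cannot be told apart. Of 10 hepatocyte markers, 3 were higher and 4 lower, and their summed level ranged over 93010 to 122300 CPM in the fasted and 99900 to 116800 CPM in the control livers. Of 11 Kupffer cell markers, 6 were lower and 1 higher, with summed levels of 313.7 to 469.8 CPM against 417.6 to 657.7 CPM. The call of the higher member, Marco, was lost in turn without any of 7 libraries, and Clec4f, a lectin of resident Kupffer cells, fell (-0.54 ± 0.13). Of 8 stellate markers 6 were lower, led by the collagen Col3a1, at 5.46, 2.46, 2.54 and 3.76 against 21.1, 20.1, 21.9 and 28 CPM (-2.68 ± 0.28). Sinusoidal endothelial markers were higher in 3 and lower in 3 of 8, and the hyaluronan receptor Lyve1 rose from 6.29, 5.75, 6.9 and 6.25 to 27.2, 32.5, 52.4 and 27.4 CPM (2.45 ± 0.43) while the summed level overlapped, at 450.4 to 501.9 and 426.5 to 531.7 CPM. Red cell markers were lower in 5 of 5, with summed levels of 41.9 to 100.6 CPM against 79.9 to 286.9 CPM. Cholangiocyte markers (summed 6.78 to 22 against 30.5 to 42.0 CPM, 2 of 5 lower) and lymphocyte markers (9.24 to 18.4 against 15.3 to 27.1 CPM, 4 of 7 lower) were low in both groups, and neutrophil and monocyte markers summed to less than 5 CPM in every library. Of 5 adipocyte markers only 2, Adipoq and Cfd, had enough counts to test, and these summed to at most 1.37 CPM. Whether adipocytes had a part in the rise of Cidec and Plin4 was not tested. The part of blood or other cells in the remaining results was not tested.

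The question of sex was put to the same 8 libraries. In males alone 4510 genes were called, 21.3%, and in females alone 6408, 30.2%, and 3042 were called in both, which is 67.5% of the male and 47.5% of the female calls. The fasting difference itself differed between the sexes for 27 genes, 0.127% (17 with a larger value in females, 10 in males), while 2523 passed at an unadjusted p under 0.05. Ttc39c was the surest, with a log2 difference of -1.69 ± 0.23 in males and 0.52 ± 0.22 in females, a sex difference of 2.21 ± 0.32 (adjusted p = 0.000276). It was read at 173, 147, 137 and 91.4 CPM in the fasted and 545, 486, 84.7 and 74.7 CPM in the control livers, so the control males held far more than any of the other 6 libraries. Idh3a, the catalytic subunit of the NAD-dependent isocitrate dehydrogenase, was at -0.27 ± 0.18 in males and 1.07 ± 0.18 in females (sex difference 1.34 ± 0.26, adjusted p = 0.0229). Bche, butyrylcholinesterase, rose in males (1.18 ± 0.13) and stood at 0.18 ± 0.13 in females (sex difference -1.0 ± 0.18, adjusted p = 0.0122). Ptgds, a prostaglandin D synthase, was at -5.22 ± 0.64 and -1.18 ± 0.47 (sex difference 4.05 ± 0.80, adjusted p = 0.028). The number of such genes rested on single libraries. It fell to between 2 and 6 without any of the other 7 libraries and rose to 1186 without fasted female 2, when the fasted females were represented by fasted female 1 alone, and the 27 were all among those 1186. Ttc39c kept its call without each of the 8 libraries, although not with these 8 libraries fitted alone (adjusted p = 0.0538), and Idh3a and Ptgds lost theirs without 7 and Bche without 5 of them.

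**Figure D4:**
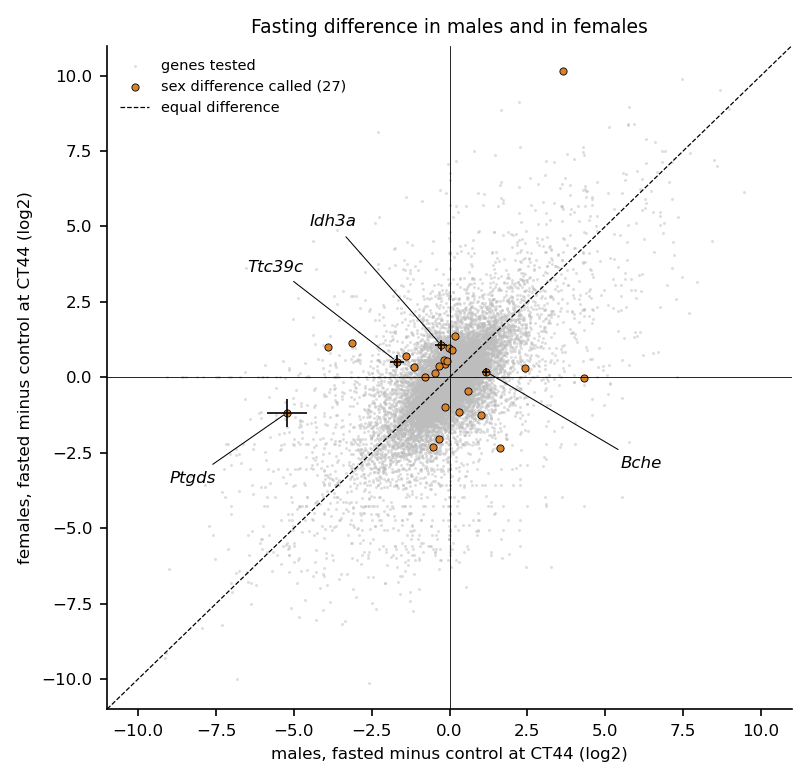
Each grey point is a gene, with its log2 difference, fasted minus control at CT44, in males on the x axis and in females on the y axis. The 27 genes whose difference changed with sex are orange, and bars on the 4 labelled genes are standard errors, as for Ttc39c at -1.69 in males and 0.52 in females.

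CT20 is the same clock phase as CT44 one cycle earlier, when the fasted mice had been without food for 10 h, and it has its own controls. Of the genes called at CT44, 5301 were also called at CT20, 63.4% of the 8355 calls at CT44 and 68.3% of the 7757 at CT20, and 30 of them had opposite signs. The fasting difference itself changed for 435 genes, 2.05% (222 with a higher value at CT44, 213 with a lower one). With upper quartile scaling the split was 332 higher against 169 lower. Of the 435, 311 were called at CT44 and 253 at CT20. By the signs of the estimates, 136 had the same sign and a larger size at CT44, 75 the same sign and a smaller size, and 224 opposite signs. These signs were counted whether or not the difference was called at either time, so they are not counts of reversals.

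Cyp2c70 was the surest of these genes, with -1.91 ± 0.23 at CT20 and -5.72 at CT44, a change of -3.81 ± 0.33 (adjusted p = 6.51e-11). Selenbp2, a selenium-binding protein, went from -1.46 ± 0.42 to -5.47 ± 0.51 (change -4.01 ± 0.62, adjusted p = 0.000205), and was read at 28.4, 22.7, 1.22 and 1.02 CPM in the fasted and 1718, 1557, 45.5 and 23.8 CPM in the control livers at CT44, with males far above females in both groups. Tm7sf2, a sterol reductase, went from -0.59 ± 0.12 to -2.07 ± 0.12, and Afm, a vitamin E-binding plasma protein, from -0.68 ± 0.12 to -1.9 ± 0.13. Krt18, a keratin of hepatocytes, went from -0.68 ± 0.12 to 0.59 ± 0.12, and Ubxn8, a protein of endoplasmic reticulum degradation, from -0.17 ± 0.07 to 0.66 ± 0.07. Krt18 was called lower at CT20 and higher at CT44, whereas Ubxn8 was called at CT44 but not at CT20. All 6 kept their call without each of the 8 libraries of CT44. Over all tested genes, the fasting difference had a higher value at CT44 than at CT20 for 1.05% and a lower one for 1.01%. Of the lists with at least 3 such genes in a direction, the value was higher for 8 of 78 oxidative phosphorylation, 5 of 42 proteasome, 3 of 83 ribosomal and 3 of 20 NRF2 genes, with none lower. It was lower for 3 of 19 peroxisomal and 3 of 30 drug-metabolising genes, with none higher, and clock genes held 3 higher and 2 lower of 19. The total was sensitive to single libraries. Leaving out fasted male 2 gave 243 genes, fasted female 1 gave 175, fasted female 2 gave 1221, control male 1 gave 272, control male 2 gave 204 and control female 1 gave 142.

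Between CT40, after 30 h without food, and CT44, the fasting difference changed for 11 genes, 0.0519% (7 higher, 4 lower at CT44, or 7 and 8 with upper quartile scaling), while 1732 passed at an unadjusted p under 0.05. Of the 8355 calls at CT44, 6232 were also made at CT40, 74.6% of the former and 73.7% of the latter, with 7 of opposite sign. Hspa8 differed by -0.01 ± 0.20 at CT40 and 1.4 ± 0.21 at CT44 (change 1.42 ± 0.29, adjusted p = 0.0419). Alpl, the alkaline phosphatase of liver and bone, went from 0.35 ± 0.13 to 1.45 ± 0.13 (change 1.1 ± 0.18, adjusted p = 0.00185), and the phosphoinositide phosphatase Mtmr14 from 0.70 ± 0.07 to 0.05 ± 0.07 (change -0.65 ± 0.10, adjusted p = 0.00101). At CT44 Mtmr14 was read at 17.6, 18, 22.7 and 17.6 CPM in the fasted and 18.1, 17.6, 18.8 and 19 CPM in the control livers, with no call. Rassf6 went from -1.43 ± 0.16 to -0.22 ± 0.16, and Eif4e, the cap-binding factor of translation, from -0.24 ± 0.06 to 0.19 ± 0.06. Alpl and Mtmr14 kept their call without each of the 8 libraries of CT44, and Hspa8 and Rassf6 lost theirs without 5 of them and Eif4e without 6. Leaving out fasted female 1 gave 60 genes, and leaving out fasted male 1, fasted male 2, control male 1, control male 2, control female 1 or control female 2 gave 7, 2, 2, 2, 6 and 7.

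**Figure D5:**
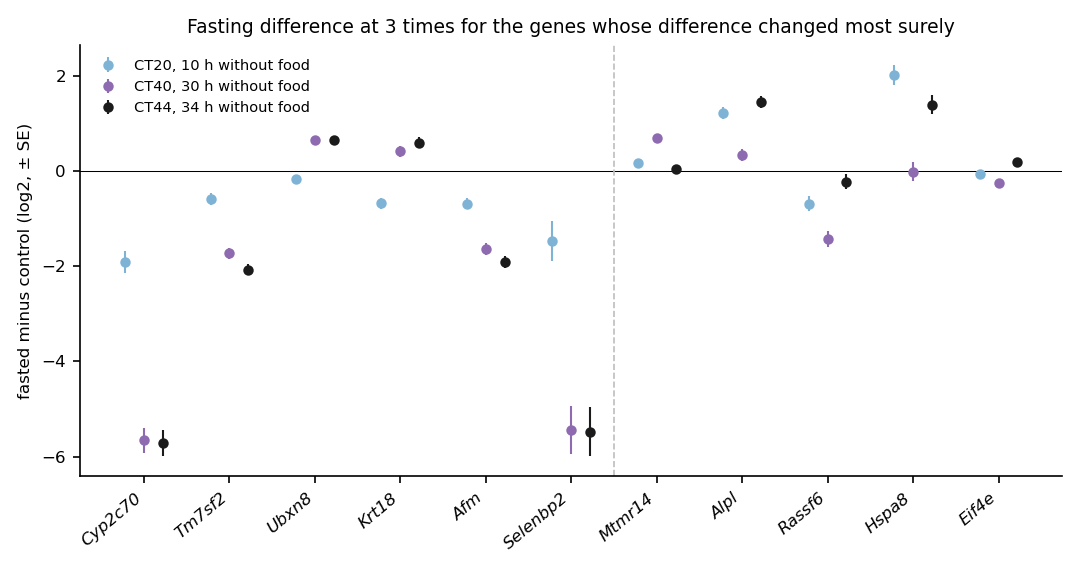
The log2 difference, fasted minus control, with its standard error at CT20 (10 h without food, blue), CT40 (30 h, purple) and CT44 (34 h, black). The 6 genes left of the dashed line were named for their change from CT20 and the 5 genes right of it for their change from CT40, such as Hspa8 at -0.01 at CT40 and 1.4 at CT44.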

How the data were processed

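Liver RNA was sequenced from 80 mice (poly-A selected, strand-specific, paired-end). The table used holds unnormalized read counts of 78275 genes in whole numbers, as deposited by the authors. The submitters' processing notes name Trimmomatic, HISAT2, DESeq2 and the build GRCm39, whereas the counting program and its annotation are not given in the sources used here. The tests were chosen here. Other deposited tables were not used here.

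Counts were analysed in R 4.3.3 with edgeR 4.0.16 over all 80 libraries, so that all groups share the estimate of spread. A mean was fitted for each treatment, time and sex, after filterByExpr (21187 genes kept), with TMM scaling and a trended dispersion. Fasted and control livers at CT44 were contrasted as the mean of both sexes, within each sex, between the sexes, and against CT20 and CT40. Quasi-likelihood p-values were adjusted over all 21187 genes (Benjamini-Hochberg) and called under 0.05, and the SE is the log2 difference over the root of the F statistic. CPM were scaled by TMM.

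Gene lists and rules were chosen with earlier results of these data known. Named genes are up to 6 called members of largest difference per list, a set of defining genes, the 10 largest rises and falls, and the 6 smallest p of each difference. A further 10 genes (Bhlhe41, Cry1, Tef, Hmgcs1, Gnmt, Psmd10, Psme1, Selenbp2, Gadd45a and Cdkn1b) were added after their values were seen. Some genes that the rule names are not reported here. The script was tested on simulated data. No pair of libraries within the fasted or within the control group of CT44 was a duplicate, as the chi-square of their counts was at least 14.8 per gene. Other pairs were not compared. Alternatives were other scalings, filters, DESeq2 1.42.0, limma-voom (limma 3.58.1), fewer samples, a replicate block and each library left out.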

Additional observations from a re-analysis of the deposited data

Results flagged for a closer look

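Of the 304 groups of 4 values behind the 152 genes named with values, 18 held a library set apart by more of its group's range than Dixon's 95% critical value allows, where chance flags about 1 group in 20. Fasted female 1 supplied 10 of the 18. It was the highest fasted library for Cyp7a1 (176 against 8.51 to 18.3 CPM), Nr1d1 (39.7 against 12.4 to 14.9 CPM), Sult1e1 (47.8 against 0.787 to 4.84 CPM), Cyp2c70 (28.2 against 10.1 to 12.2 CPM), Hspa5 (841 against 469 to 530.5 CPM), Psmd9 (96.9 against 69.7 to 71.3 CPM) and Mtmr14 (22.7 against 17.6 to 18 CPM), and the lowest for Abcb4 (576 against 694 to 715 CPM), Cdkn1b (19.4 against 25.3 to 26.5 CPM) and Rassf6 (6.88 against 8.42 to 8.73 CPM). Fasted female 2 was the highest for Clec4f (88.5 against 66.5 to 69.8 CPM).

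Control female 1 was the highest control library for Fgf21 (2.48 against 0.367 to 0.434 CPM), Fkbp5 (76.5 against 26.2 to 27.6 CPM) and Hadhb (142 against 106 to 112 CPM), and for each of these genes its value lay on the side of the fasted livers. Control female 2 was the highest for Gamt (169 against 120.1 to 126 CPM), Hmgcs1 (551 against 254 to 304 CPM) and the share of 18S ribosomal RNA (0.226%), and the lowest for Hspa8 (362 against 632 to 664 CPM) and Plin4 (6.53 against 14.2 to 14.5 CPM). No cause was tested for any of these libraries.

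The fasting difference was found to differ by a test of the difference itself for 27 genes between the sexes, for 435 between CT44 and CT20 and for 11 between CT44 and CT40. The differences between the sexes, female minus male, were 2.21 ± 0.32 for Ttc39c, -1.0 ± 0.18 for Bche, 1.34 ± 0.26 for Idh3a and 4.05 ± 0.80 for Ptgds. Those between CT44 and CT20 were -3.81 ± 0.33 for Cyp2c70, -1.48 ± 0.17 for Tm7sf2, 0.83 ± 0.10 for Ubxn8, 1.27 ± 0.16 for Krt18, -1.22 ± 0.17 for Afm and -4.01 ± 0.62 for Selenbp2. Those between CT44 and CT40 were -0.65 ± 0.10 for Mtmr14, 1.1 ± 0.18 for Alpl, 1.21 ± 0.23 for Rassf6, 1.42 ± 0.29 for Hspa8 and 0.43 ± 0.09 for Eif4e (log2, ± SE). Fasted female 1 or control female 2 stood apart in 4 of these genes at CT44, Cyp2c70, Mtmr14, Rassf6 and Hspa8.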

How the results depend on the processing

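The count of genes that differed at CT44 lay between 6530 and 8598 under other scalings, filters, tools and samples, and between 6709 and 8431 when each of the 8 libraries was left out in turn, against 8355. It was 5130 with a change of at least 1.5 times also asked for, and 4510 in males alone. The count for the sex difference (27) was 705 without a filter, 51 with at least 10 counts in every library, 251 with DESeq2, 15 with limma-voom, 10 with the 8 libraries alone and 2 to 1186 with a library left out. The count for CT44 against CT20 (435) was 1164 without a filter, 871 with DESeq2, 112 with the 16 libraries alone and 142 to 1221 with a library left out. The count for CT44 against CT40 (11) was 438 without a filter, 28 with at least 10 counts in every library, 55 with DESeq2, 1 with the 16 libraries alone and 2 to 60 with a library left out. The cause was not tested for any of these counts. A library left out leaves the other of its sex and treatment alone, and that one is then assumed to vary like the other groups.

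Replicate numbers mark no shared animal or batch in the labels, and within a sex the deviations of the fasted and control libraries of 1 number correlated at -0.0159 in males and -0.0117 in females, so a number does not pair the samples. With replicate number as a block, 5136 genes were called at CT44, 9 for the sex difference, 61 for CT44 against CT20 and 0 for CT44 against CT40 (edgeR, 806 at an unadjusted p under 0.05). There is 1 pair for each number and sex, too few to ask whether each sample correlates best with its own number.

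Followed singly were 264 results, each a gene with its difference at CT44, between the sexes, or between CT44 and CT20 or CT40. A gene named for more than 1 of these, such as Cyp2c70, counts for each. Of the 264, 153 were called with 1 direction in all alternatives run for them. Of the uncalled, 6 stayed uncalled but changed sign in at least 1 alternative (Per2, Atf4, Hspa5, Alb, Bhlhe41 and Gnmt). Over all alternatives and results, 374 values lost and 15 gained a call. For called genes, 3 values changed direction. They were Manf at 0.27 and Hyou1 at 0.065 in females alone, and Clec4g at 0.00057 in males alone. Of the list medians, 757 stayed within and 38 moved by more than the spread of the libraries, and medians changed sign in at least 1 alternative for 8 of 32 gene lists (endoplasmic reticulum chaperones, clock, one-carbon, drug metabolism, acute phase, ribosomal, mitochondrially encoded and NAD genes) and 4 of 10 marker lists. Genes near 0 CPM in a group have fitted differences that depend on few counts.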

Other observations

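Some of the largest differences fell below the mean level asked of named genes, which was taken over the 8 libraries of CT44. Their transcripts were near 0 in the fasted livers, and these genes were picked after their values were seen. Hsd3b5, a steroid reductase typical of male mouse liver, was read at 278 and 236 CPM in the control males and at 0.718 and 0.193 CPM in the fasted males (edgeR, log2 difference over both sexes -9.22 ± 1.13, adjusted p = 9.55e-09). In females it stood at 3.06 and 0.629 CPM in the controls and at 0 in both fasted livers. Chrna4, a subunit of the nicotinic acetylcholine receptor, was read at 14.1, 14, 9.85 and 30.3 CPM in the control livers and at 0.0463, 0, 0.0678 and 0 CPM in the fasted livers (-9.13 ± 1.28, adjusted p = 1.53e-07). The groups of Chrna4 did not overlap, whereas those of Hsd3b5 did across the sexes.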
